A study of Oryza sativa with 12 samples.

Results

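Plants make chlorophyll from glutamate along the tetrapyrrole pathway. 8 rice genes of that pathway were followed here, all 8 of them found by locus name among 39093 loci in the deposited tables. They are HEMA1 (LOC_Os10g35840), CHLH (LOC_Os03g20700), CHLD (LOC_Os03g59640), CHLI (LOC_Os03g36540), DVR (LOC_Os03g22780), PORA (LOC_Os04g58200), PORB (LOC_Os10g35370) and CAO1 (LOC_Os10g41780). Each had a row of its own in all 12 libraries, and none shared its row with another locus. Their locus names place CHLH, CHLD, CHLI and DVR on chromosome 3, PORA on chromosome 4 and HEMA1, PORB and CAO1 on chromosome 10.

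The libraries are RNA sequencing libraries of Oryza sativa seedlings aged 21 days. The 4 groups, of 3 libraries each, were IR64 under drought, IR64 in control, N22 under drought and N22 in control. IR64 is a cultivar that the submitters call sensitive to drought, and N22 one that they call tolerant. Drought stands for 6 h in 20% polyethylene glycol 6000, a polymer that draws water away from the roots, and control for 6 h in reverse-osmosis (RO) water. The labels name seedlings and no organ.

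Background for the pathway is as follows. HEMA1 encodes glutamyl-tRNA reductase, which catalyses the first step committed to tetrapyrroles. The subunits CHLH, CHLD and CHLI form magnesium chelatase, which puts magnesium into protoporphyrin and so sends it towards chlorophyll and away from heme. DVR reduces a vinyl side chain of the ring, the protochlorophyllide oxidoreductases PORA and PORB carry out the step that needs light, and CAO1 turns chlorophyll a precursors into chlorophyll b precursors. The pathway is known to be held in check at HEMA1 and at magnesium chelatase, because free intermediates produce reactive oxygen in light.

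Values are FPKM, fragments scaled to transcript length and to the mapped fragments of the library, so that levels of different genes can be set side by side. Changes are differences of mean log2(FPKM + 1), with their standard error (SE), from a limma fit over all 24276 loci tested. For genes of low level this scale gives a smaller change than FPKM itself. The verbs rose and fell stand for a change of at least 1 in size on the log2 scale together with an adjusted p no higher than 0.05. Libraries listed 30625 to 32107 rows and held FPKM sums of 684525 to 761822, and the depth in reads is unknown. Nothing in the labels says that replicates came from separate cultures, so the spread behind each p-value may be technical. The REP3 drought library of each cultivar lay nearer to the controls than REP1 and REP2 for most of the 8 genes, and results are given with and without both REP3 drought libraries further on. Leaving out libraries that lie nearer to the controls tends to enlarge drought changes and to lower the spread. Results of that omission therefore follow in part from the choice of libraries and are no separate evidence.

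Under drought, transcripts of PORA, CHLI and CHLD were lower by the most of the 8 genes. CHLH and HEMA1 were lower by less, and the CAO1 mean was slightly higher in both cultivars. In IR64, 2 of the 8 genes fell (CHLI and PORA) and none rose, where 4.02% of all loci tested fell. In N22, 4 fell (CHLD, CHLI, PORA and PORB) and none rose, where 5.17% of all loci fell. By the adjusted p alone, with no minimum change, 4 genes were lower in IR64 (15.8% of all loci) and 7 in N22 (19.5% of all loci). With libraries of the same REP number treated as a block, the count in IR64 became 5, because HEMA1 then had an adjusted p of 0.0424 in limma, and the share of all loci became 20.5%. With 1 library left out, the count by adjusted p alone was 3 to 6 in IR64 and 6 to 7 in N22. It was 3 in IR64 without the REP2 drought or the REP2 control library of IR64, and 6 without the REP3 drought library of N22, which enters through the shared estimate of spread. The median change of the 8 genes was -0.56 in IR64 and -0.90 in N22, against 0.00 and -0.0003 over all loci.

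Every drought library lay below every control library of its cultivar for 7 of the 8 genes in IR64 and for 7 in N22, the same 7 genes, CAO1 being the exception. Of all loci tested, 23.2% did so in IR64, 26.1% in N22 and 17.5% in both. Summed over the 8 genes, the level was 199 to 232 FPKM in IR64 drought libraries, against 306 to 360 FPKM in IR64 controls. It was 140 to 213 FPKM in N22 drought libraries, against 286 to 347 FPKM in N22 controls. In whole seedlings, fewer cells that make chlorophyll and less of these transcripts per cell cannot be told apart.

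**Figure D1:**
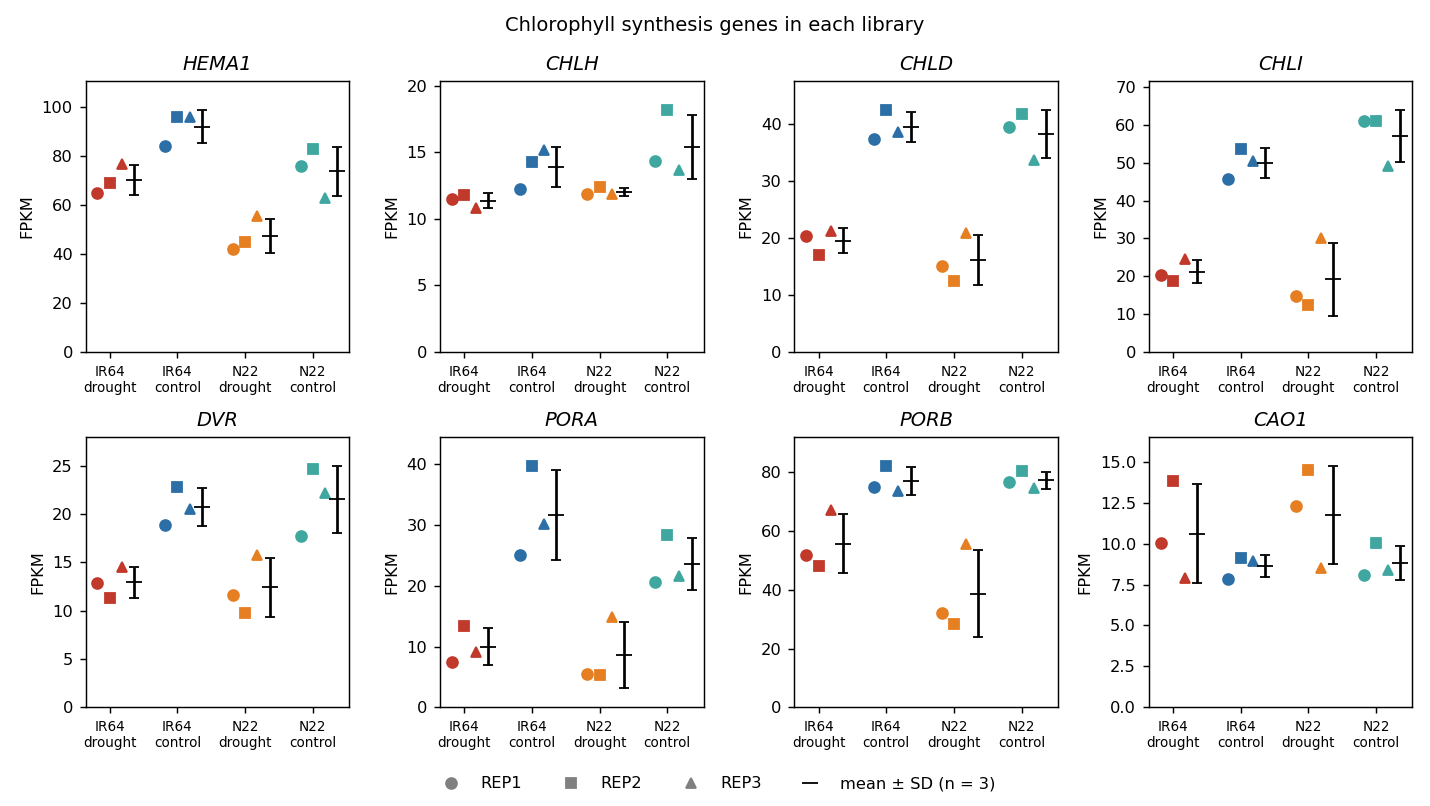
FPKM (vertical axes, from 0) of the 8 genes in each library by group, with the mean and SD of 3 libraries in black and the REP number as the symbol. For 7 genes every drought value lies below every control value of its cultivar, whereas the CAO1 values overlap.

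HEMA1, at the entry of the pathway, was the most abundant of the 8 genes or nearly so. It stood at 64.9, 68.9 and 76.8 FPKM in IR64 drought libraries REP1 to REP3, against 84.1, 96.0 and 95.7 FPKM in IR64 controls. In N22 it stood at 41.8, 44.7 and 55.3 FPKM under drought, against 75.7, 82.7 and 63.0 FPKM in control. The groups did not overlap in either cultivar, and the drought mean was 76.4% of the control mean in IR64 and 64.05% in N22. The change was -0.39 in IR64 (SE 0.13, adjusted p = 0.0506 in limma) and -0.63 in N22 (SE 0.13, adjusted p = 0.00479 in limma), both smaller than the minimum of 1.

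The subunits of magnesium chelatase did not move alike. CHLH, the large subunit that binds the porphyrin, stood at 11.5, 11.8 and 10.8 FPKM in IR64 drought libraries, against 12.2, 14.3 and 15.2 FPKM in IR64 controls. Its values in N22 were 11.9, 12.4 and 11.9 FPKM under drought, against 14.4, 18.2 and 13.7 FPKM in control. The drought values lay below the control values in both cultivars, by a narrow margin. The change was -0.26 in IR64 (SE 0.11, adjusted p = 0.105 in limma) and -0.32 in N22 (SE 0.11, adjusted p = 0.0457 in limma). The N22 change was -0.20 without the REP2 control of N22, and its adjusted p was above 0.05 on leaving out any of 9 of the 12 libraries.

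CHLD and CHLI encode the other subunits of magnesium chelatase, an enzyme that uses ATP to insert magnesium. CHLD stood at 20.3, 17.0 and 21.2 FPKM in IR64 drought libraries, against 37.4, 42.5 and 38.7 FPKM in IR64 controls. In N22, CHLD stood at 15.1, 12.4 and 21.0 FPKM under drought, against 39.5, 41.8 and 33.7 FPKM in control. Drought and control values were far apart in both cultivars, and the change was -0.99 in IR64 (SE 0.17, adjusted p = 0.00294 in limma) and -1.22 in N22 (SE 0.17, adjusted p = 0.000778 in limma). The IR64 change thus missed the minimum of 1 by a little, and it passed with a pseudocount of 0.1 (-1.02), with quantile scaling (-1.04), and without REP1 or REP3 of the IR64 drought libraries (-1.02 and -1.05) or of the IR64 controls (-1.03 and -1.0004).

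CHLI stood at 20.3, 18.7 and 24.6 FPKM in IR64 drought libraries, against 45.7, 53.7 and 50.5 FPKM in IR64 controls. In N22, CHLI stood at 14.9, 12.5 and 30.2 FPKM under drought, against 61.0, 61.2 and 49.2 FPKM in control. The REP3 drought library of N22 stood well above the other N22 drought libraries, yet below each control. CHLI fell by 1.21 in IR64 (SE 0.26, adjusted p = 0.00733 in limma) and by 1.62 in N22 (SE 0.26, adjusted p = 0.00147 in limma). The drought mean was 42.4% of the control mean in IR64 and 33.6% in N22.

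The balance between the subunits differed between drought and control. The ratio of CHLH to CHLI was 0.566, 0.633 and 0.439 in IR64 drought libraries, against 0.267, 0.266 and 0.301 in IR64 controls. In N22 it was 0.801, 0.988 and 0.392 under drought, against 0.236, 0.297 and 0.278 in control. The ratio was higher in every drought library than in any control library, on the log2(FPKM + 1) scale by 0.94 in IR64 and 1.30 in N22. An exact two-sided permutation test that exchanged treatments within each cultivar gave p = 0.005, the smallest that its 400 arrangements can give (0.0075 adjusted over the 3 ratios tested). For each of the 3 ratios, exchange of signs between same-numbered libraries gave exact p = 0.03125, the smallest that its 64 arrangements can give. The ratios were chosen with earlier results of these data known, so these tests are not independent of those results.

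The ratio of CHLD to CHLI differed much less. It averaged 0.924 ± 0.0704 in IR64 drought libraries and 0.791 ± 0.0256 in IR64 controls (SD, n = 3 each), and 0.899 ± 0.178 in N22 drought libraries and 0.672 ± 0.0207 in N22 controls (SD, n = 3 each). On the log2(FPKM + 1) scale the difference was 0.22 in IR64 and 0.39 in N22, and the same exact permutation test gave p = 0.005 (0.0075 adjusted over the 3 ratios). CHLD and CHLI thus declined by similar amounts, CHLI by slightly more.

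DVR, the divinyl reductase, stood at 12.9, 11.3 and 14.5 FPKM in IR64 drought libraries, against 18.9, 22.7 and 20.5 FPKM in IR64 controls. In N22 it stood at 11.7, 9.79 and 15.8 FPKM under drought, against 17.7, 24.6 and 22.2 FPKM in control. The groups did not overlap, though in N22 the highest drought value and the lowest control value were close. The change was -0.65 in IR64 (SE 0.17, adjusted p = 0.0181 in limma) and -0.76 in N22 (SE 0.17, adjusted p = 0.00650 in limma), below the minimum size in both cultivars.

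The protochlorophyllide oxidoreductases differed in abundance and in their share lost. PORA stood at 7.53, 13.5 and 9.05 FPKM in IR64 drought libraries, against 25.1, 39.8 and 30.1 FPKM in IR64 controls. In N22, PORA stood at 5.50, 5.39 and 14.9 FPKM under drought, against 20.7, 28.4 and 21.5 FPKM in control. All drought values were below all control values, with REP3 of N22 the nearest to them. PORA fell by 1.58 in IR64 (SE 0.34, adjusted p = 0.00761 in limma) and by 1.48 in N22 (SE 0.34, adjusted p = 0.00694 in limma), to 31.6% and 36.4% of the control mean.

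PORB, the more abundant of the pair in all 12 libraries, stood at 51.6, 48.1 and 67.0 FPKM in IR64 drought libraries, against 75.0, 82.1 and 73.5 FPKM in IR64 controls. In N22, PORB stood at 32.0, 28.5 and 55.4 FPKM under drought, against 76.6, 80.1 and 74.5 FPKM in control. REP3 was the highest drought library in both cultivars. The change was -0.47 in IR64 (SE 0.21, adjusted p = 0.116 in limma) and -1.04 in N22 (SE 0.21, adjusted p = 0.00416 in limma). The N22 change was smaller than 1 without the REP1 drought library of N22 (-0.94) or the REP2 drought library of N22 (-0.85).

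The ratio of PORB to PORA was 6.86, 3.57 and 7.40 in IR64 drought libraries, against 2.99, 2.06 and 2.44 in IR64 controls. In N22 it was 5.82, 5.28 and 3.73 under drought, against 3.70, 2.82 and 3.46 in control. Drought values were above control values within each cultivar, in N22 by a very narrow margin between REP3 under drought and REP1 in control. On the log2(FPKM + 1) scale the ratio was higher by 1.11 in IR64 and 0.45 in N22, with p = 0.01 in the exact two-sided permutation test over both cultivars (0.01 adjusted over the 3 ratios). PORA and PORB are similar in sequence, and reads could be split between them wrongly.

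**Figure D2:**
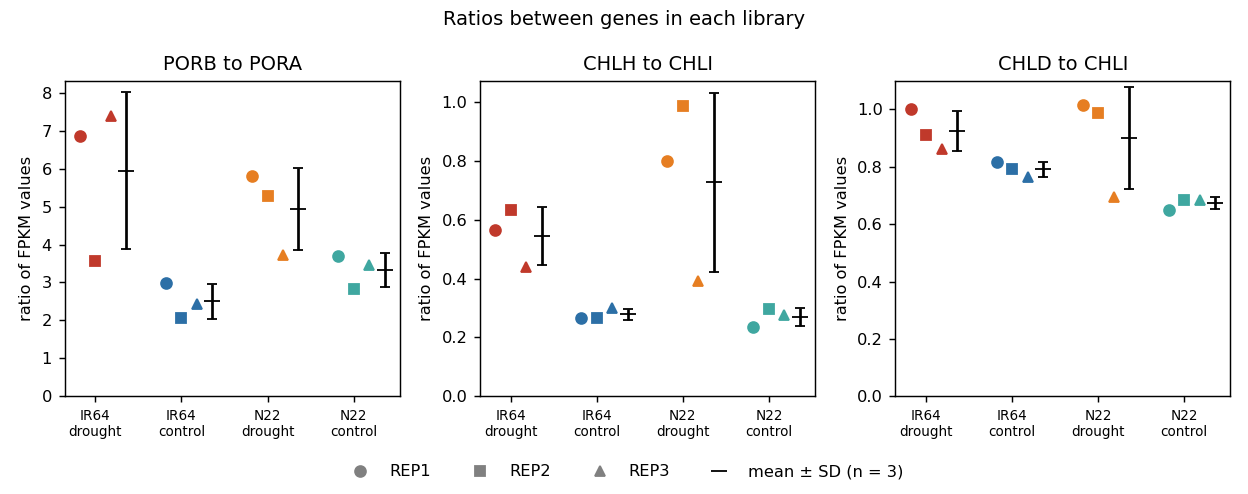
Ratios of FPKM values (vertical axes, from 0) between PORB and PORA, CHLH and CHLI, and CHLD and CHLI in each library by group, with mean and SD of 3 libraries in black. The CHLH to CHLI ratio is 0.392 or more in every drought library and 0.301 or less in every control library.

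CAO1, the oxygenase of chlorophyll b synthesis, was the least abundant of the 8 genes in control. It stood at 10.1, 13.8 and 7.91 FPKM in IR64 drought libraries, against 7.85, 9.14 and 8.91 FPKM in IR64 controls. In N22 it stood at 12.3, 14.5 and 8.54 FPKM under drought, against 8.08, 10.0 and 8.39 FPKM in control. REP1 and REP2 were higher under drought in both cultivars, whereas REP3 overlapped with the controls. The change was 0.24 in IR64 (SE 0.20, adjusted p = 0.404 in limma) and 0.35 in N22 (SE 0.20, adjusted p = 0.195 in limma). With 1 library left out, it ranged from 0.046 (without the REP2 drought library) to 0.41 (without REP3) in IR64, and from 0.20 to 0.55 in N22 with the same libraries at the ends.

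**Figure D3:**
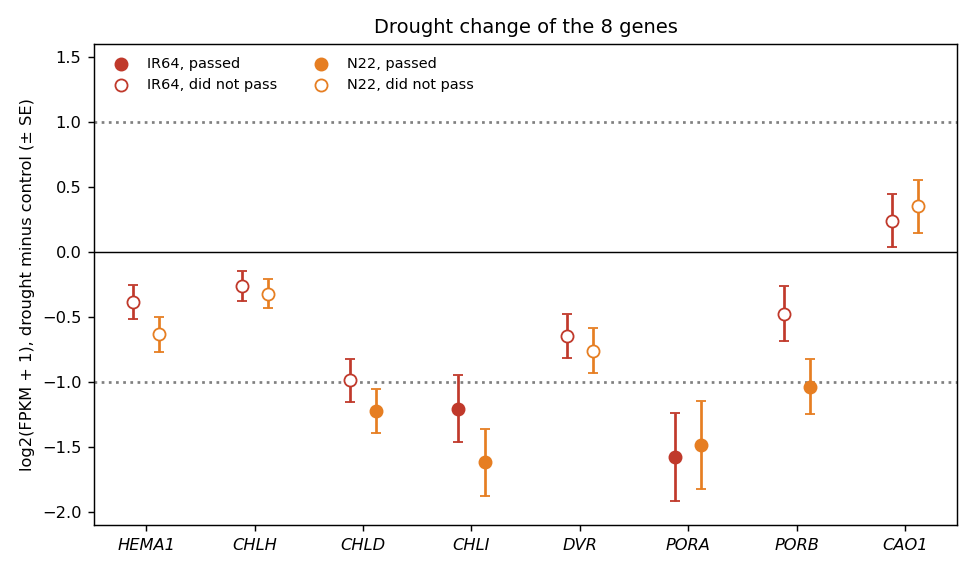
Change of mean log2(FPKM + 1), drought minus control (vertical axis, bars are SE), of the 8 genes in IR64 and N22. Filled points passed both thresholds (dotted lines mark a change of 1 in size), and PORA and CHLI are the genes filled in both cultivars.

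Averaged over both cultivars, with 6 libraries per treatment, 3 of the 8 genes fell (CHLD by 1.10, CHLI by 1.41 and PORA by 1.53), where 4.42% of all loci fell. By adjusted p alone 7 genes were lower, against 26.4% of all loci. PORB changed by -0.76 (SE 0.15), DVR by -0.70 (SE 0.12), HEMA1 by -0.51 (SE 0.09) and CHLH by -0.29 (SE 0.08), with adjusted p of 0.00188, 0.000855, 0.00128 and 0.0113 in limma. CAO1 changed by 0.30 (SE 0.14, adjusted p = 0.107 in limma). With the replicate block, CAO1 had an adjusted p of 0.0336 in limma, and 1 of the 8 genes was then higher by adjusted p alone, where 29.3% of all loci were.

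The order of levels was compressed under drought. In IR64 controls the order of mean levels was HEMA1, PORB, CHLI, CHLD, PORA, DVR, CHLH and CAO1, and only CHLD and PORA overlapped among neighbours. In N22 controls PORB and HEMA1 changed places, and PORB overlapped with HEMA1, PORA with DVR, and DVR with CHLH. Under drought PORA had the lowest mean of the 8 genes in both cultivars, at 10.0 ± 3.09 FPKM in IR64 and 8.58 ± 5.43 FPKM in N22 (SD, n = 3 each). It was not the lowest in every drought library. In REP3 of N22 PORA (14.9 FPKM) lay above CHLH (11.9 FPKM) and CAO1 (8.54 FPKM). In IR64 it lay above DVR in REP2 (13.5 against 11.3 FPKM) and above CAO1 in REP3 (9.05 against 7.91 FPKM). In IR64 drought libraries DVR, CHLH, CAO1 and PORA overlapped from neighbour to neighbour, and in N22 drought libraries all neighbours in the order overlapped.

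Libraries of the same REP number gave the same direction for most genes. In all 6 pairs of a drought and a same-numbered control library, HEMA1, CHLH, CHLD, CHLI, DVR, PORA and PORB were lower under drought. CAO1 was higher in 5 of 6 pairs and lower in REP3 of IR64. In N22, REP3 had the smallest change in size of the 3 pairs for all 8 genes, for example -0.69 for CHLI, against -1.97 in REP1 and -2.20 in REP2. In IR64, REP3 had the smallest change for 6 genes, the exceptions being CHLH and PORA. The PORA changes in IR64 were close together at -1.61, -1.49 and -1.63 in REP1, REP2 and REP3.

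**Figure D4:**
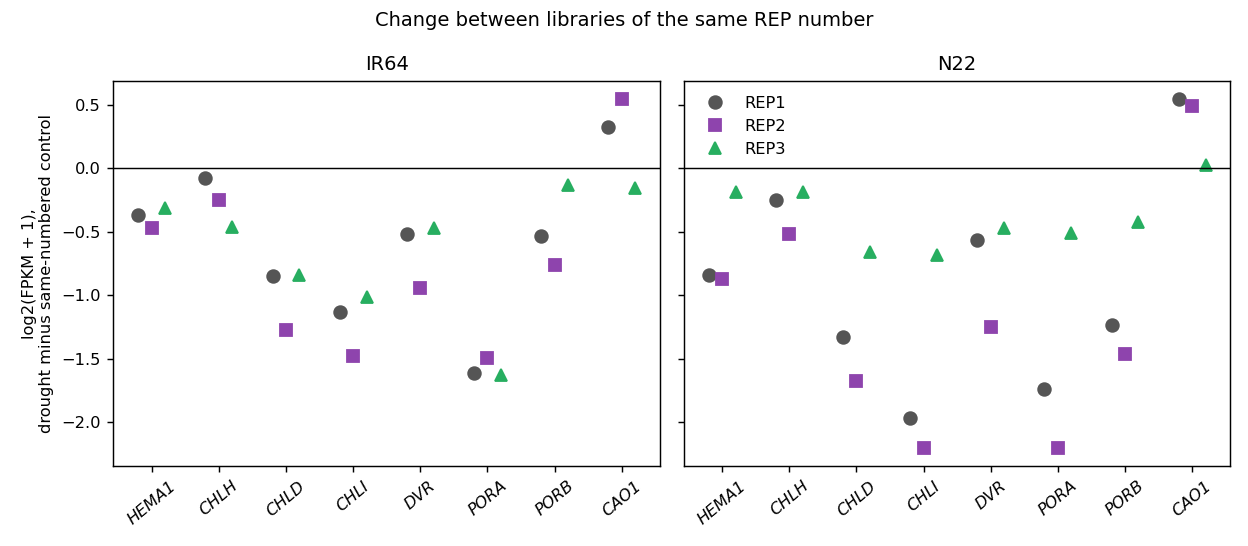
Difference in log2(FPKM + 1) between the drought and the control library of the same REP number (vertical axis) for the 8 genes, in IR64 on the left and N22 on the right. In N22 the REP3 points lie nearest to 0 for all 8 genes.

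Without the REP3 drought libraries of both cultivars, 3 genes fell in IR64 (5.57% of all loci), CHLD by 1.05, CHLI by 1.31 and PORA by 1.53. In N22 the same 4 genes fell as with all libraries (8.31% of all loci), CHLD by 1.42, CHLI by 1.98, PORA by 1.92 and PORB by 1.32. CAO1 then changed by 0.41 in IR64 (SE 0.15, adjusted p = 0.0500 in limma) and by 0.55 in N22 (SE 0.15, adjusted p = 0.0130 in limma), still less than 1. The omitted libraries were those nearer to the controls for most of the 8 genes, so these p-values are descriptions only.

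The drought responses of the cultivars were compared directly, as the change in N22 minus the change in IR64. None of the 8 genes passed in limma, where 0.247% of all loci passed, and none had an unadjusted p below 0.05, where 6.78% of all loci did. The largest difference was that of PORB, at -0.56 (95% confidence interval -1.23 to 0.10, adjusted p = 0.876 in limma). For PORA it was 0.10 with an interval of -0.97 to 1.16, so that a moderate difference in either direction was not detectable with these libraries. The interval for CHLH was narrower, -0.41 to 0.30. Without both REP3 drought libraries the PORB difference was -0.71 (SE 0.12, adjusted p = 0.0219 in limma), below the minimum of 1. That p-value follows in part from the choice of the libraries left out, so it is no evidence of a difference between cultivars.

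Between cultivars in the same condition, none of the 8 genes passed, where 10.7% of all loci passed under drought and 9.92% in control. Of the 8 genes, 2 had an unadjusted p under 0.05 under drought (HEMA1 and PORB), as did 33.5% of all loci. In control 1 did (HEMA1), as did 28.3% of all loci. Neither is a larger share than over all loci. HEMA1 averaged 47.3 ± 7.08 FPKM in N22 drought libraries and 70.2 ± 6.02 FPKM in IR64 drought libraries (SD, n = 3 each), a difference of -0.57 (SE 0.13, adjusted p = 0.00946 in limma). All N22 drought values of HEMA1 lay below all IR64 drought values. In control HEMA1 averaged 73.8 ± 9.99 FPKM in N22 and 91.9 ± 6.78 FPKM in IR64 (SD, n = 3 each), a difference of -0.32 (SE 0.13, adjusted p = 0.140 in limma). With 1 library left out, PORB under drought ranged from -0.38 (without REP2 of N22 drought) to -0.85 (without REP3 of N22 drought). Without both REP3 drought libraries PORB differed by -0.71 (adjusted p = 0.000541 in limma) and CHLI by -0.48 (adjusted p = 0.0298 in limma), both still below the minimum of 1. Both p-values depend on that choice of libraries and are descriptions only. With all libraries PORB differed by -0.56 under drought (SE 0.21, adjusted p = 0.0854 in limma) and by 0.0053 in control (SE 0.21, adjusted p = 0.995 in limma).

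Of 15 other genes of chlorophyll synthesis, 5 fell in IR64 and none rose, and 8 fell in N22 and none rose, where 4.02% and 5.17% of all loci fell. The IR64 count was 8 without the REP3 drought library of IR64, when GSA1, HEME1 and CHLG passed too, and 3 without the REP2 drought library. Their median change was -0.93 in IR64 and -1.14 in N22. CHLM, the methyltransferase that follows magnesium chelatase, had the largest change, to 17.8 ± 5.92 FPKM in IR64 drought libraries, against 54.8 ± 4.48 FPKM in IR64 controls (SD, n = 3 each). CHLM fell by 1.61 in IR64 (SE 0.46) and by 1.98 in N22 (SE 0.46), and in IR64 its call was lost without any of 5 of the 6 IR64 libraries, all except the REP3 drought library (adjusted p of 0.0574 to 0.0777 in limma). PPOX1, a protoporphyrinogen oxidase, fell by 1.50 in IR64 (SE 0.29) and by 1.63 in N22 (SE 0.29).

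The others that fell in both cultivars were HEMC, HEME2 and GUN4. HEMC encodes porphobilinogen deaminase, HEME2 a uroporphyrinogen decarboxylase and GUN4 a protein that stimulates magnesium chelatase. GSA1, HEME1 and CHLG passed in N22. In IR64 their changes of -0.94, -0.93 and -0.999 were slightly smaller than the minimum. The call of HEMC in IR64 was lost without the REP2 drought library (-0.91), and in N22 those of GSA1 (-0.90) and CHLG (-0.97) were lost without the REP2 drought library. PPOX2, singled out after its values were seen, was higher by 0.49 in IR64 (SE 0.09, adjusted p = 0.00404 in limma) and by 0.37 in N22 (SE 0.09, adjusted p = 0.00884 in limma), while its counterpart PPOX1 fell.

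**Figure D5:**
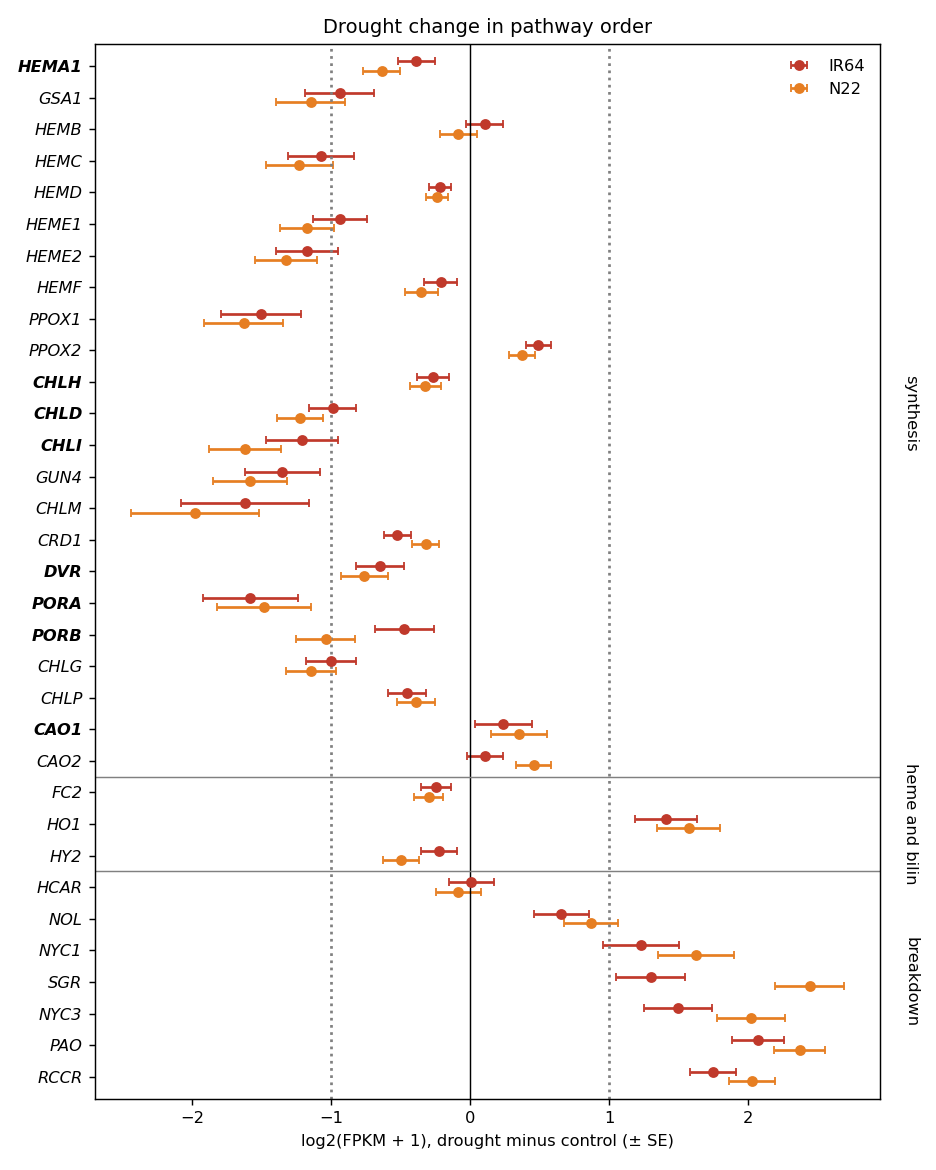
Change of mean log2(FPKM + 1), drought minus control (horizontal axis, bars are SE), for chlorophyll synthesis genes in pathway order (the 8 genes in bold), the heme and bilin branch, and chlorophyll breakdown, in IR64 and N22. Most synthesis genes lie left of 0, and HO1 and the breakdown genes other than HCAR lie right of it.

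In the heme and bilin branch, which shares the pathway up to protoporphyrin, 1 of 3 genes rose in each cultivar and none fell, where 4.35% of all loci rose in IR64 and 6.55% in N22. HO1, the heme oxygenase that begins bilin synthesis for phytochrome, stood at 118 ± 29.5 FPKM in IR64 drought libraries and 43.0 ± 4.19 FPKM in IR64 controls (SD, n = 3 each), a change of 1.41 (SE 0.23). In N22 HO1 rose by 1.57 (SE 0.23). FC2 and HY2 went the other way, at 83.9% and 83.8% of the control mean in IR64 and 81.1% and 68.1% in N22. For both genes every drought library lay below every control library of its cultivar, as it did for 17.5% of all loci.

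Of 7 genes of chlorophyll breakdown, 5 rose in each cultivar and none fell, where 4.35% of all loci rose in IR64 and 6.55% in N22. In IR64 PAO, the pheophorbide a oxygenase that opens the ring, rose by 2.07 (SE 0.19) and RCCR, the reductase after it, by 1.75 (SE 0.16). In N22 SGR, which takes magnesium out of chlorophyll a, stood at 143 ± 50.1 FPKM under drought and 24.2 ± 2.09 FPKM in control (SD, n = 3 each), a change of 2.44 (SE 0.25), and PAO rose by 2.37 (SE 0.19). NYC1 and NYC3 rose in both cultivars too.

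Of 10 genes that regulate the pathway or greening, 1 rose in IR64 and none fell, where 4.35% of all loci rose and 4.02% fell. In N22 1 rose and 1 fell, where 6.55% of all loci rose and 5.17% fell. PIL11, a bHLH factor of the phytochrome-interacting type, rose in IR64 by 1.00 (SE 0.22) and in N22 by 1.02 (SE 0.22). In IR64 that call was lost without the REP2 drought library (0.90), without the REP3 control (0.90) and with array weights (0.86). In N22 it was lost without the REP2 drought library (0.75), the REP1 control (0.95) or the REP3 control (0.97). CGA1, a GATA factor of chloroplast development, fell in N22 by 1.01 (SE 0.16), a call lost without the REP1 or REP2 library of either treatment (-0.88 to -0.9999). None of the other 8 passed in either cultivar with all libraries, but GLK1, a factor of chloroplast development, rose in IR64 without the REP3 drought or the REP2 control library. FLU1 fell in N22 without the REP3 drought library. GLK1 and FLU1 were named after their values were seen.

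The light-harvesting proteins, which bind the chlorophyll made, went both ways. Of 11 genes 3 rose and 1 fell in IR64, where 4.35% of all loci rose and 4.02% fell. In N22 4 rose and 1 fell, where 6.55% of all loci rose and 5.17% fell. LHCB2, among those that rose in IR64, lost its call there without the REP2 drought, REP2 control or REP3 control library, which left 2. CAB1R rose by 2.07 in IR64 (SE 0.31) and by 2.70 in N22 (SE 0.31), and LHCA3 by 1.42 (SE 0.24) and 1.61 (SE 0.24). LHCB4 fell by 1.29 in IR64 (SE 0.23) and by 1.08 in N22 (SE 0.23), the N22 call being lost without the REP1 drought, REP2 drought or REP1 control library (-0.93 to -0.96).

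Markers of green shoot and of root were both present in all libraries, with no marker at 0 in any of them. The summed level of the 11 light-harvesting genes was 1199 to 1559 FPKM in IR64 drought libraries, against 742 to 1172 FPKM in IR64 controls. In N22 it was 1554 to 1692 FPKM under drought, against 836 to 1172 FPKM in control. The sum was higher in every drought library than in any control library of the same cultivar, by a narrow margin in IR64, though single genes of the list, LHCB4 among them, were lower. The summed level of 7 root genes was 412 to 520 FPKM in IR64 drought libraries, against 566 to 616 FPKM in IR64 controls, and 286 to 468 FPKM in N22 drought libraries, against 529 to 683 FPKM in N22 controls. Lsi1, RCc3 and Lsi2 had the highest levels of the 7 in each group, and the 7 did not move alike. RCc3 and Lsi1 were lower in every drought library than in any control library of the same cultivar. WOX11 was higher, at 170% of the control mean in IR64 and 279% in N22. Lsi2, IRT1, NRT2.1 and NRT2.3 overlapped between treatments. Of the 6 root genes tested none passed in IR64, where 4.35% of all loci rose and 4.02% fell. In N22 RCc3 fell by 1.22 and WOX11 rose by 1.11, where 5.17% of all loci fell and 6.55% rose. Both N22 calls were lost without the REP1 or the REP2 drought library, that of RCc3 also without the REP1 control and that of WOX11 without the REP2 control. Without the REP3 drought library of IR64, RCc3 also fell in IR64. The part of organ proportions in the results was not tested.

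CHLD and CHLI were the most alike of the 8 genes over the 12 libraries, with Pearson's r = 0.98 on log2(FPKM + 1). Once the 4 group means were taken away their r was 0.95, and CHLI was then slightly more like PORB (0.96). HEMA1 was most like PORB (r = 0.88), DVR most like CHLI (0.95), PORA most like CHLD (0.93) and PORB most like CHLD (0.93). With group means taken away, these were 0.72, 0.76, 0.62 and 0.90, and the closest partners changed. HEMA1, PORA and PORB were then most like CHLI (0.80, 0.74 and 0.96), and DVR most like PORB (0.83). CHLH was most like DVR, at r = 0.73, which dropped to 0.20 with group means taken away. CAO1 had a negative r with each of the others, -0.14 with CHLH being the nearest to 0. With group means taken away, r of CAO1 was 0.52 with CHLH and still negative with each of the rest. Among genes of the other lists, the pattern of CHLH was most like those of CHLP (r = 0.84), FC2 (0.82) and HEMD (0.78). Among all loci it was most like LOC_Os02g47800 (0.94) and LOC_Os05g34630 (0.93), for which the files give no name. These correlations are descriptions over 12 libraries that share 4 groups.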

How the data were processed

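According to the submitters' processing notes and the design text of the series, reads were filtered with NGSQC Toolkit 2.3.3, aligned to the RGAP 7.0 rice genome with TopHat 2.1.1 (bowtie 2.3.3.0) and quantified with Cufflinks 2.2.1. The deposited values are FPKM made by the authors with Cufflinks. The design text also names missForest, which fills in values that a replicate lacks, and the files do not say which values, if any, were filled. No such gap could be checked for the 8 genes, which are listed in every file.

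Rows of the same name were summed and a locus absent from a file counted as 0, giving 39093 loci. Tested were 24276 loci, those that reached an FPKM of 1 in 2 libraries of some group, all 8 genes among them. Group means of log2(FPKM + 1) over 12 libraries were fitted with limma 3.58.1 (R 4.3.3, intensity trend, two-sided, Benjamini-Hochberg over all loci tested in each contrast). Thresholds of 0.05 and 1 are those of the design text. The fit was tested on simulated data. Ratios were tested by exact permutation, and tables and plots used pandas 2.3.3 and matplotlib 3.10.9 (Python 3.11.15). Ratios of low values showed no common step (1.77% to 13.8% within 1% of the commonest), so read counts were not recovered and no counting intervals are given.

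The 8 genes, gene lists, ratios and tests were chosen with earlier results of these data known. Named genes are the 8, up to 2 called genes each way from each other list in each drought contrast, and the genes most like CHLH. HEMC, HEME1, HEME2, GUN4, GSA1, CHLG, HY2, NYC1, NYC3 and the root genes, outside that rule, were named after their values were seen. Of 63 listed symbols 27 were found in a RefSeq gene list of another assembly (ASM3414082v1), 26 on the matching chromosome. The symbol FC1 belonged to a gene on another chromosome in that list, so FC1 was dropped although its locus had values. Symbols not found in that list were kept, except PIL15, which was listed in no file. CRD1 shared its row with a neighbouring locus.

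The REP numbers are the labels' own. After subtraction of group means, same-numbered libraries correlated above 0.1 in 12 of 12 cases (0.118 to 0.595). These cases include libraries of different cultivars, at 0.360 to 0.595 between the drought groups, against 0.118 to 0.169 between N22 drought and N22 control. The numbers thus appear to mark something shared across groups, and not just a pairing of drought with control. In each group REP2 listed the most rows and had the lowest median FPKM. The main limma fit and the main ratio tests did not use the REP numbers. The numbers entered through a replicate block and, for the ratios, exchange of signs between same-numbered libraries, both among the alternatives. Other alternatives were another pseudocount, filters, scalings, no trend, array weights, rows tested singly, a fit of just the compared libraries, no minimum change, and omission of libraries.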

Additional observations from a re-analysis of the deposited data

How the results depend on the processing

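Of the counts of genes called among the 8, all stayed within 1.5 times under every alternative except the adjusted p alone, which gave 4 in IR64, 7 in N22, 7 over both cultivars and 1 between cultivars under drought. Leaving out each library gave 2 to 3 in IR64, 3 to 4 in N22 and 3 over both cultivars. A replicate block gave the same counts as no block, 2, 4 and 3, and changed no call of the 8 genes made with both thresholds. The 3 ratios kept their direction and an adjusted p of at most 0.05 in all 15 alternatives each, including exchange of signs between same-numbered libraries (replicate block, exact p = 0.03125, the smallest that 64 arrangements give).

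Over all loci, the adjusted p alone called 7272 in IR64, 9475 in N22, 12725 over both cultivars, 5749 between cultivars under drought and 4626 in control. An FPKM minimum of 5 gave 1586 and 1370 between cultivars under drought and in control, with fewer loci tested. The count for the difference of responses was 924 with array weights, 357 without both REP3 drought libraries, and 23 to 320 with 1 library left out (320 without REP3 of N22 drought, 93 without REP3 of IR64 drought, 23 without REP3 of IR64 control, and 26, 29 and 29 when REP1, REP2 or REP3 of N22 control was omitted). The cause was not tested. PORB between cultivars in control, near 0, turned to -0.0016 with array weights and ranged from -0.026 to 0.053 with 1 library left out.

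Quantile scaling moved the median change of all loci by less than 0.1. Groups of 3 and an unknown depth limit precision, and differences well under 1 on the log2 scale were often not detectable.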
